A study of Mus musculus with 8 samples.

Results

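The cysteine and aspartic cathepsins are the main protein-cutting enzymes of the lysosome, and 8 of them were followed here in mouse lung alveolar macrophages: Ctsb, Ctsc, Ctsd, Ctsh, Ctsk, Ctsl, Ctss and Ctsz. They were taken by symbol, as 8 of the 12701 genes in the deposited expression table, and all 8 passed the filter on low values that left 11273 genes for testing. Alveolar macrophages, the resident macrophages of the airspaces, had been sorted from the lungs of C57BL/6 mice, and their RNA was sequenced. The naive group (3 libraries) came from mice without tumors. The d15 group (2 libraries) and the d35 group (3 libraries) came from mice given KP cells, a mouse lung tumor line, into the tail vein, with lungs taken at day 15 or 35 by the labels. By the growth protocol lungs were taken over a period too short to reach day 35, and this conflict was not resolved here. Each library was made from 20000 sorted cells, per the labels' protocols. Separate animals are not named for the libraries of a group, and each p-value here therefore reflects the library-to-library spread, part or all of which may be technical. The d15 libraries are called replicates A and B because their column numbers differ from those in the sample titles.

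Cathepsins are made as inactive precursors, tagged with mannose phosphate or carried by sorting receptors, and delivered to the acidic lysosome, where the inhibitory propeptide is removed. Ctsd is an aspartic protease, with a pair of aspartates in its active site, and the other 7 are papain-like cysteine proteases held in check by cystatins and related inhibitors. Endopeptidases (Ctsd, Ctsl, Ctss and Ctsk) cut within a protein chain, whereas Ctsc, Ctsh and Ctsz trim its ends and Ctsb can do both. In macrophages these enzymes digest engulfed material, prepare antigen for major histocompatibility complex (MHC) class II, and can be released to cut extracellular matrix.

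Values are given as scaled CPM, the authors' CPM after a scaling of library sizes. The 8 libraries held between 27465745 and 39572173 recovered reads, and the cathepsins were deeply covered, from 7087 reads for Ctsl in naive replicate 1 to 229696 for Ctsd in d35 replicate 1. Of 13 alveolar macrophage markers, 3 rose at d35 (Cd68, Car4 and Ear2) and 1 fell, Siglecf, from 719 ± 36.6 (SD, n = 3) in naive to 591 ± 47.1 (SD, n = 3), with a limma adjusted p of 0.033. The rise of Ear2 was lost with a length correction, which turned its log2 fold change from 0.35 to -0.013, and also without naive replicate 1 or 2 or d35 replicate 2 or 3. Lyz2, the lysozyme gene, was the highest marker, at 41487 ± 2299 scaled CPM in naive libraries. Lower counts of a gene in bulk RNA may mean fewer cells that express it or less RNA per cell, and these cannot be told apart.

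Each member is a protein-coding gene in GENCODE M21 on mm10. Ctsb lies at chr14:63122462-63145923 on the plus strand and Ctsc at chr7:88278085-88310888 on the plus strand. Ctsd lies at chr7:142375911-142388038 on the minus strand and Ctsh at chr9:90054152-90076089 on the plus strand. Ctsl lies at chr13:64359337-64370890 and Ctsz at chr2:174427493-174439039, both on the minus strand. Ctsk (chr3:95499256-95509362) and Ctss (chr3:95526786-95556403) are next to each other on the plus strand, 17398 bases apart by their RefSeq spans. Reads of some members could have been split with other genes, depending on how the authors counted. Of the 50-base words in the main transcript, 15.4% for Ctsb also occur in the overlapping gene Fdft1, 36.6% for Ctsd in Gm49369 and 28.1% for Ctsl in 130 other genes. The other 5 members share none with any other gene, and no member shares one with another member.

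RefSeq promoter windows of GRCm38.p6, 250 bases before to 50 bases after the start, were found for 6 of the 8 members (Ctsc, Ctsd, Ctsk, Ctsl, Ctss and Ctsz). They were searched on both strands for CACGTG, the core of the CLEAR element bound by the lysosomal regulator TFEB and its relatives. It occurred in 2 of the 6 windows, Ctsd and Ctsl, against 7.15% of all 32851 windows and 9.99% of those of the tested genes. The extended form TCACGTGA, which contains CACGTG, occurred in Ctsd alone and in 0.974% of all windows. A match is a description of the letters and not of binding. The 30 bases around each match are shown 5′ to 3′ on the gene's strand with CACGTG in capitals, because these are the only copies found in the 6 windows. They lie 245 and 98 bases before the RefSeq start of Ctsd (chr7:142388048-142388077 and chr7:142387908-142387937, minus strand) and 236 bases before that of Ctsl (chr13:64370739-64370768, minus strand). By GENCODE M21 the nearer Ctsd match and the Ctsl match lie within the gene span, since other isoforms start farther upstream, and the nearer Ctsd match lies in the 5′ UTR of such an isoform. The printed Ctsl stretch runs into the 5′ UTR of another, and the farther Ctsd match lies outside the gene span.
Ctsd, farther match: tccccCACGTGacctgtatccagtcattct
Ctsd, nearer match: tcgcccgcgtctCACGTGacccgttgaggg
Ctsl: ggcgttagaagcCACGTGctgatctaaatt

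The neighbours Ctss and Ctsk are shown with the 250 bases before their RefSeq starts, because they had different values at d15 and different changes at d35, described below. The Ctss stretch (chr3:95526536-95526785, plus strand) holds a core of the interferon-stimulated response element (GAAA, any 2 bases and GAAA again), in capitals, 21 to 12 bases before the start. That motif was searched for after the sequence had been read, and 3.44% of all windows hold it on either strand. The Ctsk stretch (chr3:95498960-95499209, plus strand) holds none of these motifs, and so is all in lower case.
Ctss: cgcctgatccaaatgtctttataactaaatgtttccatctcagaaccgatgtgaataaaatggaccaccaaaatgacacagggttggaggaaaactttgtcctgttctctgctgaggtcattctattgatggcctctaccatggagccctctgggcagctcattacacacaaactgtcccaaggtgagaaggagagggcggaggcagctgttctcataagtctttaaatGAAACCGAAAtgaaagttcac
Ctsk: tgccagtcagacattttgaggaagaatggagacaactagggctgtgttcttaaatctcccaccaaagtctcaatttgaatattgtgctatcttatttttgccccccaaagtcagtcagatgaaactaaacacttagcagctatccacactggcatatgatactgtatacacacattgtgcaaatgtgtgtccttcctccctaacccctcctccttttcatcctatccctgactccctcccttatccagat

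The 8 genes together took a larger part of the table at d35. Their summed scaled CPM was 1.56%, 1.64% and 1.68% of the table's total in naive replicates 1 to 3, 1.75% and 1.69% in d15 replicates A and B, and 2.48%, 2.03% and 2.19% in d35 replicates 1 to 3. The d35 libraries were all above the other 5, and the naive and d15 shares lay next to each other without overlapping. Levels can be compared between genes only per length, and in scaled CPM per kilobase of the main transcript the naive order was led by Ctss at 2508 ± 221 (SD, n = 3) and Ctsd at 2176 ± 69.2. Ctsc followed at 1139 ± 30.8, Ctsz at 721 ± 35.5 and Ctsb at 488 ± 14.2. Ctsh at 374 ± 15.9 and Ctsk at 360 ± 53.9 had overlapping naive ranges, 356 to 387 and 298 to 397, so their order is not resolved. Ctsl was lowest, at 44.7 ± 5.29, with a main transcript of 6168 bases of which 1002 are coding. Per coding kilobase instead, Ctsd came before Ctss and Ctsb moved up to the third place, so these places depend on which part of the transcript the reads covered.

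The order at d15 was that of the naive libraries, with no overlap between neighbours in its 2 libraries. At d35 Ctsk held the fifth place, at 894 ± 213 (SD, n = 3) scaled CPM per kilobase of main transcript, above Ctsb at 749 ± 148 and Ctsh at 475 ± 58.2. Its d35 range, 666 to 1088, overlapped those of Ctsb (645 to 918) and of Ctsz (954 to 1204), and lay above that of Ctsh (412 to 527). The ranges of Ctss (3358 to 4104) and Ctsd (2692 to 3748) also overlapped at d35.

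**Figure D1:**
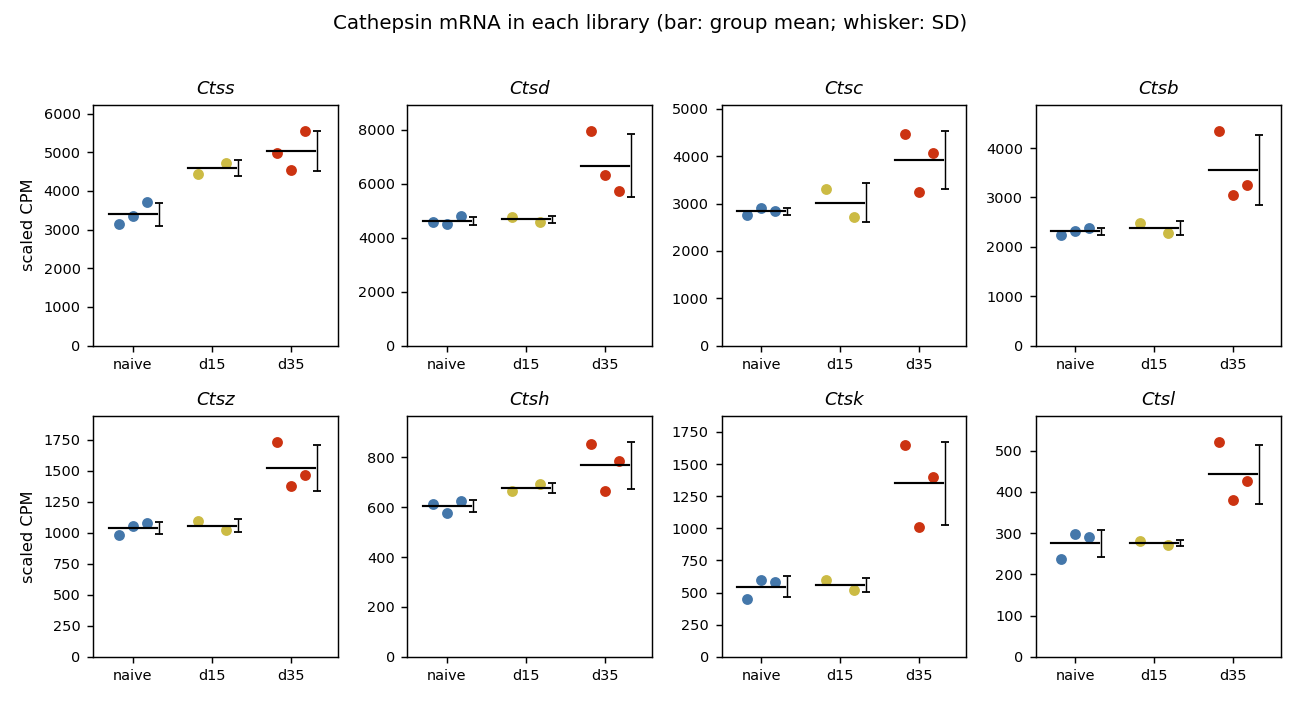
Scaled CPM (vertical axes, from 0, one scale per gene) of the 8 cathepsins in each library, by group; bars are group means and whiskers SDs over 3 naive, 2 d15 and 3 d35 libraries. All d35 points lie above all naive points in every panel, and in Ctss and Ctsh the d15 points also lie above the naive ones.

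At d35 all 8 cathepsins were higher than in naive macrophages, from 1.27-fold for Ctsh to 2.48-fold for Ctsk as ratios of group means. Each passed limma's test at an adjusted p of 0.05, and for each the lowest d35 library was above the highest naive one. Over all genes tested, 9.86% rose and 6.32% fell in that comparison, and among the 482 genes at least as abundant as the lowest member 16.8% rose. For 20.7% of all genes the d35 libraries lay wholly above the naive ones. The median log2 fold change of the 8 members was 0.56, against -0.0022 over all genes tested, whose 5th and 95th percentiles were -0.50 and 0.60. Each fold change below is a difference of log2(scaled CPM + 1).

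Ctsk, the collagen-cutting cathepsin best known from bone-resorbing osteoclasts, had the largest change of the 8. Its naive values were 451, 600.4 and 583 scaled CPM, its d15 values 596 and 522, and its d35 values 1645, 1007 and 1403. The naive and d15 libraries covered the same range, and the lowest d35 library was well above the highest of those 5. The group means were 545 ± 81.6 (SD, n = 3) in naive and 1351 ± 322 (SD, n = 3) at d35, a log2 fold change of 1.29 (SE 0.17, limma adjusted p = 0.00115).

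Ctsl, a broad lysosomal endopeptidase, had the next largest change. Its values were 238, 298 and 291 scaled CPM in naive, 282 and 271 at d15, and 522, 381 and 427 at d35. The d35 libraries stood apart from the other 5, which mixed. The log2 fold change of d35 against naive was 0.68 (SE 0.12, limma adjusted p = 0.00569).

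Ctss cuts the invariant chain that guards the peptide groove of MHC class II, and unlike most cathepsins it stays active at neutral pH. It was at 3132, 3339.7 and 3723 scaled CPM in naive replicates 1 to 3 and at 4982, 4549.8 and 5561 at d35. The group means were 3398 ± 299 and 5031 ± 507 (SD, n = 3 each), a log2 fold change of 0.56 (SE 0.11, limma adjusted p = 0.00912). Its d15 values, 4449 and 4729, lay above all naive values, the first just below the d35 range and the other within it.

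Ctsd, the aspartic endopeptidase of the set, was at 4573, 4519 and 4796 scaled CPM in naive and at 4769.7 and 4584 at d15. The d35 libraries read 7972, 6322 and 5727, all higher and more widely spread, with an SD of 1163 against 147 in naive. The log2 fold change of d35 against naive was 0.51 (SE 0.13, limma adjusted p = 0.0228).

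Ctsb, which can act as an endopeptidase or remove dipeptides from the carboxyl end, had naive values of 2244, 2328 and 2378 scaled CPM, d15 values of 2481 and 2279 and d35 values of 4355, 3058 and 3249. One d35 library, replicate 1, stood well above the others. The log2 fold change of d35 against naive was 0.60 (SE 0.13, limma adjusted p = 0.0129).

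The remaining 3 members trim protein ends. Ctsz, a carboxypeptidase, was at 981, 1059 and 1078 scaled CPM in naive, 1097 and 1019 at d15, and 1735, 1374 and 1463 at d35 (log2 fold change 0.55, SE 0.095, limma adjusted p = 0.00573). Ctsc, a dipeptidyl peptidase that activates the granule serine proteases of leukocytes, was at 2759.7, 2913 and 2844 in naive, 3310.3 and 2727 at d15, and 4461, 3243 and 4063.5 at d35 (log2 fold change 0.45, SE 0.13, limma adjusted p = 0.0356). The d15 pair of Ctsc spanned the naive range, and its higher library exceeded the lowest d35 library. Ctsh, an aminopeptidase that in lung also processes surfactant protein precursors, had the smallest d35 change of the set: 613, 576 and 625 in naive against 852, 666 and 787 (log2 fold change 0.34, SE 0.091, limma adjusted p = 0.0317).

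**Figure D2:**
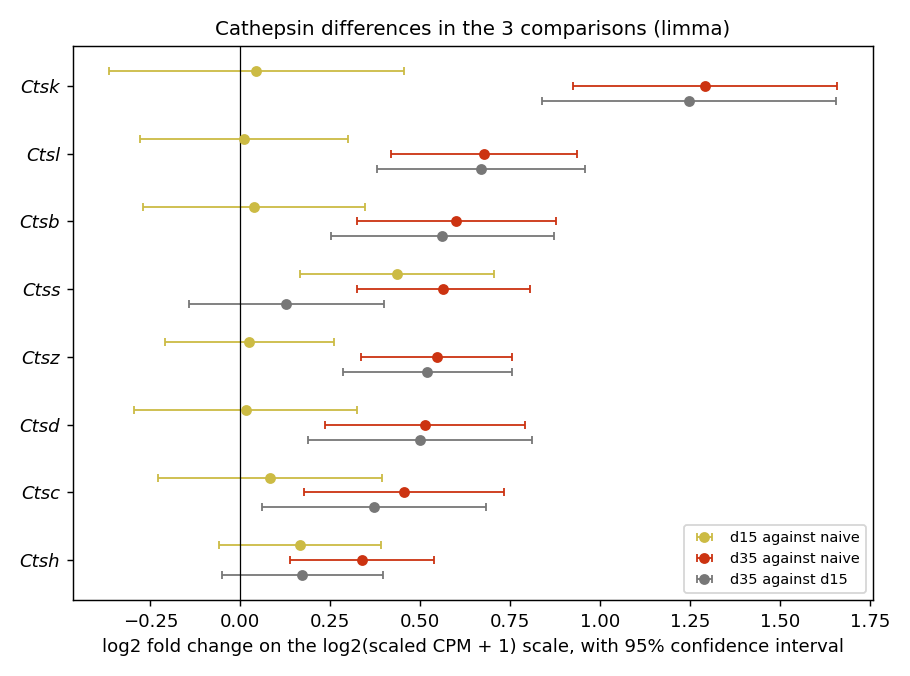
Log2 fold change (horizontal axis, log2 of scaled CPM + 1) of each cathepsin in d15 against naive, d35 against naive and d35 against d15, with 95% confidence intervals from limma (3 naive, 2 d15 and 3 d35 libraries). The 8 intervals of d35 against naive lie above 0, and of the 8 intervals of d15 against naive only that of Ctss does.

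Ctsb, Ctsk, Ctsl, Ctss and Ctsz passed the d35 test under all 21 settings tried, whereas Ctsd passed in 16 and Ctsc and Ctsh in 15. Leaving out any 1 naive library ended the call for Ctsc, Ctsd and Ctsh (adjusted p from 0.0554 to 0.112), as leaving out d35 replicate 1 or 3 did for Ctsc and Ctsh (0.0857 to 0.0999), and a correction for transcript length, which ended the calls of Ctsd and Ctsh, lowered the log2 fold changes of Ctsh to 0.17, Ctss to 0.36 and Ctsz to 0.35.

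**Figure D3:**
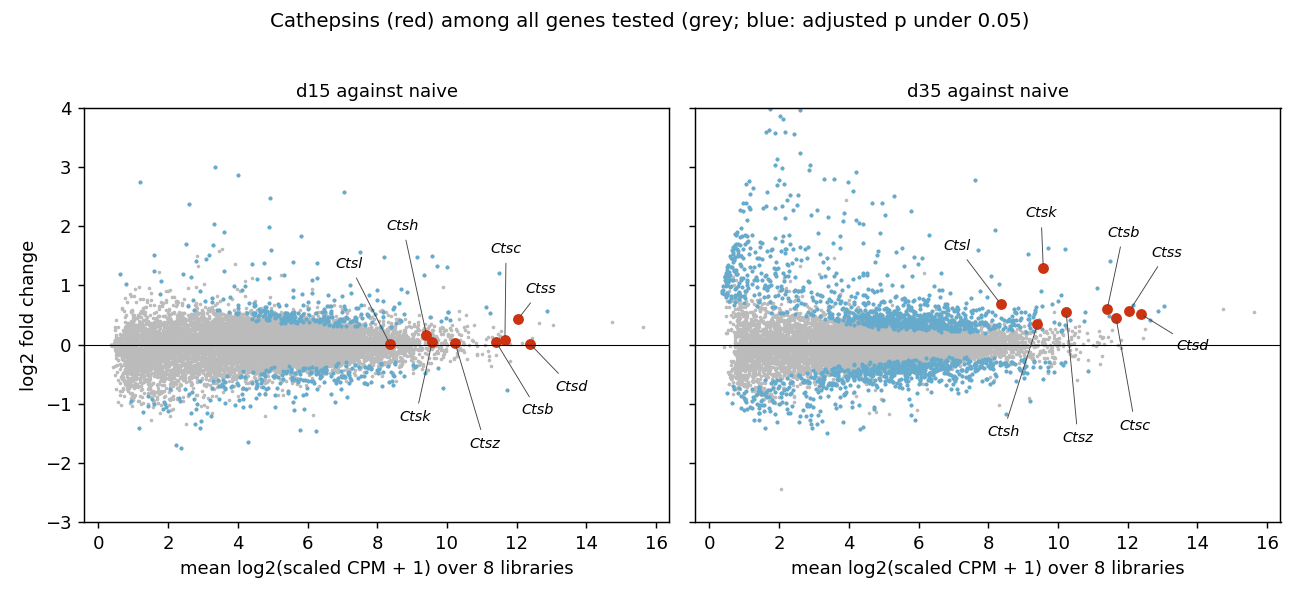
Log2 fold change (vertical axis) against mean log2(scaled CPM + 1) over 8 libraries (horizontal axis) for the 11273 genes tested, with the 8 cathepsins in red and genes past an adjusted p of 0.05 in blue; 17 genes lie beyond the axis in the d35 panel and 0 in the d15 panel. At d15 the cathepsins other than Ctss lie within 0.17 of 0, and at d35 all 8 lie above it.

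At d15 none of the 8 passed the test, where 4.37% of all genes did, 2.37% higher and 2.00% lower, and 5.19% of the genes at least as abundant as the lowest member were higher. Of the genes called at d15, 54.2% were higher, but 38.2% when each library was centred on its median. The members' median log2 fold change was 0.042, against 0.012 over all genes. At an unadjusted p under 0.05 there was 1 member, Ctss, and DESeq2 called the same 1 while edgeR and limma-voom called 0. Ctss stood at 4589 ± 198 scaled CPM (SD, n = 2), with a log2 fold change of 0.44 (SE 0.12, 95% interval 0.17 to 0.71, limma adjusted p = 0.0638). Its adjusted p ran from 0.0030 (DESeq2) to 0.327 (without d15 replicate B) over the settings tried, and 3 of 20 called it: DESeq2, a fit of only the 2 groups, and the fit without d35 replicate 3. The length correction lowered its log2 fold change to 0.28. In the authors' deposited table of d15 against naive, which covers 10778 genes, 3.61% had an FDR under 0.05, and Ctss was the only 1 of the 8 members among them, with a log2 fold change of 0.41 and an FDR of 0.00456.

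The other 7 members had d15 log2 fold changes between 0.0095 (Ctsl) and 0.17 (Ctsh) in the limma fit. Ctsh read 664 and 693 scaled CPM at d15, both above the highest naive library, yet its adjusted p was 0.326. For 25.9% of all genes tested the d15 libraries lay wholly above the naive ones, and 2 of the 8 members, Ctss and Ctsh, were among such genes. The 95% intervals bound what could have been missed: for Ctsz the log2 difference lay between -0.21 and 0.26, for Ctsl between -0.28 and 0.30 and for Ctsk, the most variable, between -0.36 and 0.45. In the authors' deposited table the log2 fold changes of these 7 ran from -0.017 for Ctsl to 0.15 for Ctsh, whose FDR was 0.558.

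The comparison of d35 with d15 tests the difference between the 2 changes from naive directly. The members Ctsk (log2 fold change 1.25, SE 0.19, limma adjusted p = 0.00308), Ctsl (0.67, 0.13, 0.0132), Ctsz (0.52, 0.11, 0.0159) and Ctsb (0.56, 0.14, 0.0357) were higher at d35. Of all genes tested 7.39% passed, 4.59% higher and 2.80% lower, and 7.88% of the genes at least as abundant as the lowest member rose. The share of rises among the calls was 62.1%, or 49.8% with the length correction. The members' median log2 fold change was 0.51, against -0.0026 over all genes. For 5 members, those 4 and Ctsd, the d35 libraries lay wholly above the d15 ones, as they did for 19.0% of all genes.

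Ctsd missed the threshold between the times, with a log2 fold change of 0.50 (95% interval 0.19 to 0.81, limma adjusted p = 0.0581). Ctsc (0.37, interval 0.061 to 0.68, adjusted p = 0.144) and Ctsh (0.17, interval -0.052 to 0.40, adjusted p = 0.366) had overlapping libraries. Ctss differed by 0.13 (interval -0.14 to 0.40, adjusted p = 0.605), and its difference from naive was 0.44 at d15 and 0.56 at d35. These calls rest on 2 d15 libraries: without replicate A 1 member passed, Ctsk, and without replicate B none did, although the log2 fold changes of the 4 stayed between 0.47 and 1.34.

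The members did not vary independently between libraries. Within the d35 group replicate 1 was the highest library for 7 of the 8 (Ctss was highest in replicate 3), and replicate 2 was the lowest for 7 (Ctsd was lowest in replicate 3). Relative to the naive mean on the log2(scaled CPM + 1) scale, d35 replicates 1, 2 and 3 stood at 1.60, 0.90 and 1.37 for Ctsk, at 0.91, 0.40 and 0.49 for Ctsb, and at 0.56, 0.42 and 0.71 for Ctss. Among naive libraries replicate 1 was the lowest for 6 members. As a description over the 8 libraries, which share their group differences and their scaling, the Pearson correlation between members was highest for Ctsk with Ctsl, at 0.990, and lowest for Ctss with Ctsd, at 0.603. The correlations of Ctss with the other 7 ran from 0.603 to 0.856, the highest being with Ctsh.

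**Figure D4:**
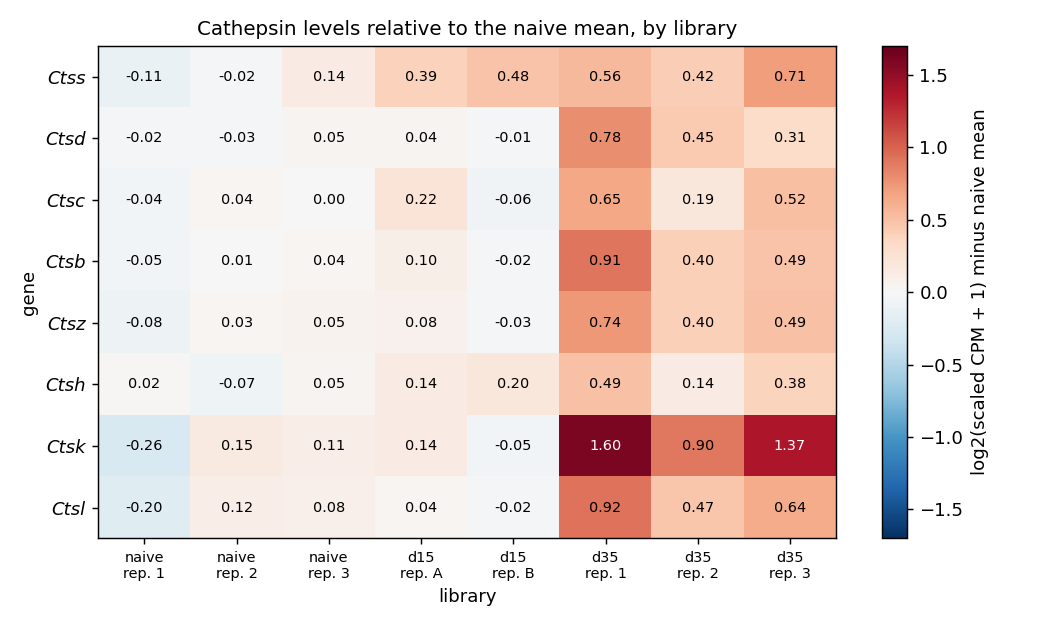
Log2(scaled CPM + 1) minus the naive mean (colour scale, printed in each cell) for each cathepsin (rows) in each of the 8 libraries (columns). The d35 columns are positive for every gene, and d35 replicate 1 is the darkest for 7 of 8. Both d15 cells of Ctss, 0.39 and 0.48, come near its d35 cells. In Ctsc and Ctsh the higher d15 cell, 0.22 and 0.20, lies above that of d35 replicate 2, 0.19 and 0.14.

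Markers of other cell types moved in the same libraries. Of 10 monocyte and interstitial macrophage markers 9 had a row, and 5 of these rose at d35, C1qa, C1qb, C1qc and Ccr2 among them. None fell past the threshold at d35, but Cx3cr1, Ly6c2 and Lyve1 had log2 fold changes of -0.69, -0.32 and -0.28. They are named after their values were seen. C1qb was at 0.454, 1.77 and 1.57 scaled CPM in naive, 5.46 and 9.11 at d15, and 156, 43.8 and 98.5 at d35, again highest in replicate 1 and lowest in replicate 2. The summed level of the 9 ran from 408 to 647 in naive, 490 to 582 at d15 and 667 to 987 at d35, and none of them was at 0 in any library. At d15, 1 of the 9 rose, C1qb, and 1 fell, Cx3cr1. Cd14 was the most abundant of them, at 531 ± 129 scaled CPM in naive and 596 ± 132 at d35, and did not pass the test (limma adjusted p = 0.55).

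Of 8 epithelial and tumor cell markers with a row, Krt8, Krt18 and Krt7 rose at d35 and Epcam fell. Krt8 was at 0.262 ± 0.13 in naive and 15.0 ± 4.4 at d35, while Epcam was at 201 ± 15.5 and 120.2 ± 41.9 (SD, n = 3 each). The summed level of the 8 ran from 1429 to 1443 in naive, 1232 to 1353 at d15 and 1217 to 1336 at d35. Most of that sum was Krt19, at 1049 ± 35.8 in naive and 897 ± 130 at d35 (limma adjusted p = 0.13). The sum therefore cannot show the changes of the 3 low keratin genes. All 6 endothelial markers and 3 of 4 B cell markers fell at d35, as did 1 of 5 fibroblast markers, Col3a1. Of 4 neutrophil markers 1 passed, S100a9, which rose to 2.79 ± 2.8 (limma adjusted p = 0.0497). Csf3r, the most abundant of the 4, was lower, at 68.1 ± 9.17 in naive and 49.7 ± 10.4 at d35. It did not pass (limma adjusted p = 0.0782), and neither did the remaining neutrophil markers, which were higher at d35. No dendritic cell marker passed at d35 (0 of 4 at an unadjusted p under 0.05), and the 5 T and NK cell markers with a row were below the filter. Sums of 13 dissociation and stress genes ran from 2588 to 6267 in naive, 5257 to 6264 at d15 and 2071 to 4595 at d35. The lowest sums were in naive replicate 1 and d35 replicate 1. At d15, 3 of the 13 rose, Dnaja1 and Ier3 among them, where 2.37% of all genes did. At d35 these 2 rose and 1 fell, Jun, against 9.86% and 6.32% of all genes. The part of these cells and genes in the cathepsin differences was not tested.

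Ctsk and Ctss are adjacent genes, yet their ratio was not constant. Scaled CPM of Ctsk over that of Ctss was 0.144, 0.180 and 0.157 in naive replicates 1 to 3, 0.134 and 0.110 at d15, and 0.330, 0.221 and 0.252 at d35. The 3 groups did not overlap, with d15 lowest and d35 highest. An exact two-sided permutation test gave p = 0.10 for d35 against naive, the smallest this design allows. That value follows from the lack of overlap, so the test adds nothing to it. Arnt, the gene on the other side of Ctsk, was at 72.2 ± 2.84, 61.1 ± 1.57 and 62.1 ± 5.34 scaled CPM in naive, d15 and d35, and did not pass at d35 (adjusted p = 0.0898).

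Other genes beside the members were mixed. Fdft1, which overlaps the end of Ctsb, was at 33.5 ± 5.83 in naive and 42.1 ± 7.53 at d35, a log2 difference of 0.32 that did not pass but whose 95% interval, -0.0056 to 0.64, holds that of Ctsb (limma adjusted p = 0.16). Nelfcd, which overlaps an end of Ctsz, fell from 52.6 ± 1.37 to 41.0 ± 2.68, with -0.35 as the log2 difference (SE 0.082, limma adjusted p = 0.0184). Ifitm10 beside Ctsd (adjusted p = 0.243), Morf4l1 beside Ctsh (0.952) and both tested neighbours of Ctsl, Prxl2c (0.888) and Cdk20 (0.594), did not pass. Syt8, on the far side of Ctsd, rose at a low level, 0.363 ± 0.094 in naive and 1.46 ± 0.47 at d35 (limma adjusted p = 0.0337).

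The list of sorting and activation genes, which also holds the lysosomal membrane genes Lamp1, Lamp2 and Scarb2, gave rises at d35 for 3 of 12 and falls for 0. Of all genes tested 9.86% rose, as did 16.8% of those at least as abundant as the lowest member. The list's median log2 fold change was 0.16, against -0.0022 over all genes. Lgmn encodes legumain, a protease that cleaves several cathepsin precursors. It was at 235, 239 and 251 scaled CPM in naive, 271 and 214 at d15 and 611, 391 and 498 at d35, a log2 fold change of 1.02 (SE 0.14, limma adjusted p = 0.00184). Its naive and d15 libraries mixed and its d35 libraries were all higher, ordered as those of most cathepsins were.

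Psap, the precursor of the saposins that help lysosomal enzymes reach their lipid substrates, was at 3840.4 ± 227 in naive, 3886 ± 81.7 at d15 and 6139 ± 1199 at d35 (log2 fold change 0.66, limma adjusted p = 0.0106). Igf2r, the mannose phosphate receptor that also binds insulin-like growth factor, rose from 1.88 ± 0.38 to 7.16 ± 5.7, with 13.7 in replicate 1 and 3.73 and 4.01 in the others. M6pr, the gene of the other mannose phosphate receptor, was at 607 ± 28.2 in naive and 670 ± 39.6 at d35 (limma adjusted p = 0.202). Sort1, a sorting receptor gene, was lower at d35, 825 ± 150 against 1017 ± 87.8 in naive (limma adjusted p = 0.107). Neither passed, and both are named after their values were seen. Grn, progranulin, a lysosomal protein precursor, was higher at d35 than at d15 (1507 ± 34.9 against 1209 ± 49.3, limma adjusted p = 0.0376), and did not pass against naive (0.0553). With Grn, 4 of the 12 rose between the times, and none passed at d15, where 1 had an unadjusted p under 0.05.

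Inhibitors of cysteine cathepsins mostly rose at d35. Of 16 listed, 7 had a row, 5 were tested and 4 were higher at d35, with a median log2 fold change of 0.79. Over all genes tested the median was -0.0022 and 9.86% rose, as did 16.8% of those at least as abundant as the lowest member. Cst3, cystatin C, the main secreted inhibitor, was at 302, 319 and 348 in naive, 403 and 458 at d15, and 453.5, 361 and 509 at d35 (limma adjusted p = 0.0827 at d15 and 0.0308 at d35). Cstb, the cytosolic stefin B, was at 141 ± 19.4, 173 ± 3.58 and 245 ± 42.1 in the 3 groups (adjusted p = 0.00407 at d35).

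At d15, where 2.37% of all genes rose, 2 inhibitors had an unadjusted p under 0.05. Serpina3g, an intracellular serpin that blocks cysteine cathepsins, rose at both times and was the only inhibitor to pass at d15. Its values were 0.286, 0.210 and 0.831 scaled CPM in naive, 6.08 and 6.69 at d15, and 30.6, 11.1 and 27.5 at d35 (limma adjusted p = 0.00852 and 6.2e-05). Ctla2a, which resembles a cathepsin propeptide, stayed low at 1.24 ± 0.42 and 2.91 ± 0.74 in naive and d35 (adjusted p = 0.0298).

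**Figure D5:**
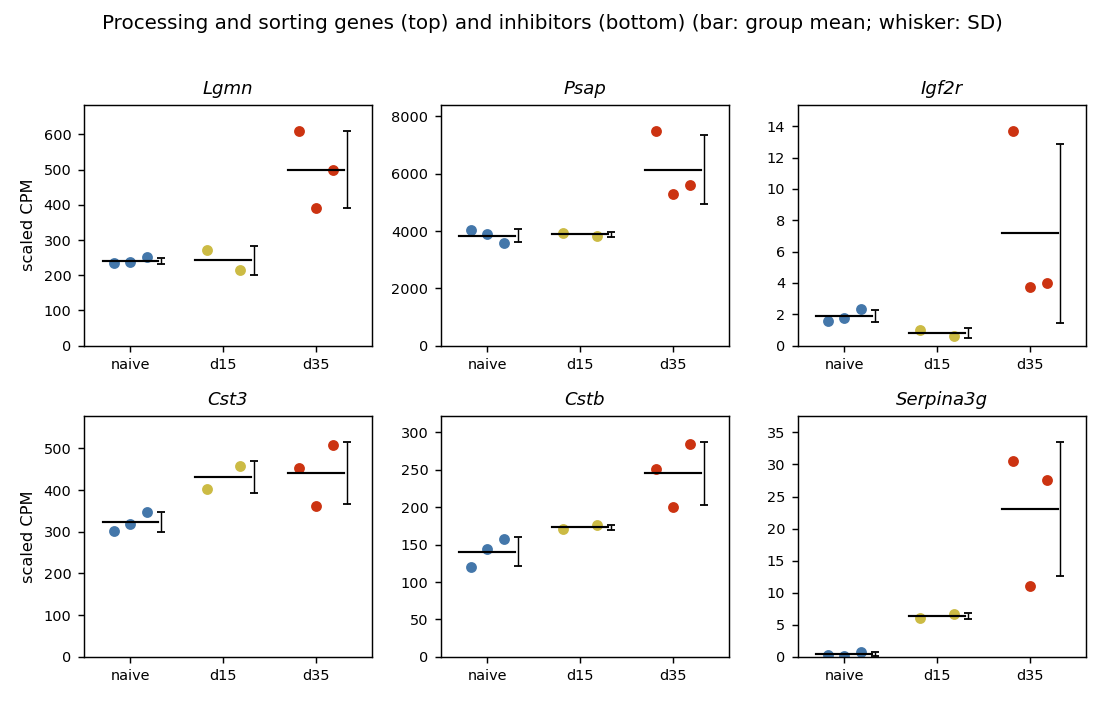
Scaled CPM (vertical axes, from 0) of the sorting and activation genes Lgmn, Psap and Igf2r and of the inhibitors Cst3, Cstb and Serpina3g in each library, by group, with group means (bars) and SDs (whiskers) over 3 naive, 2 d15 and 3 d35 libraries. In each upper panel the d35 libraries lie above the other 5. For 20.7% of all genes tested they lie above the naive ones and for 19.0% above the d15 ones. The d15 libraries of the 3 inhibitors lie above all naive ones, as they do for 25.9% of all genes tested.

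The list of regulators of lysosomal genes holds 4 transcription factors (Tfeb, Tfe3, Tfec and Mitf) and 2 other genes, the channel gene Mcoln1 and the signalling gene Flcn. None of the 6 passed at d35 against naive, where 2 had an unadjusted p under 0.05, Tfeb with a log2 fold change of -0.17 and Flcn with 0.23. Tfec and Mitf rose at d15, where 2.37% of all genes did and 5 of the 6 had an unadjusted p under 0.05. Tfeb, Tfe3 and Mcoln1 were lower at d15, with log2 fold changes of -0.24, -0.24 and -0.25. They did not pass (limma adjusted p = 0.0944, 0.0922 and 0.0921). Tfeb, Mcoln1 and Flcn are named after their values were seen. Tfec was at 145, 145 and 151 scaled CPM in naive, 204 and 202 at d15, and 160.5, 167 and 149.8 at d35 (limma adjusted p = 0.0104 at d15, and 0.0171 for the lower d35 level against d15). Mitf was at 23.5 ± 2.24, 36.8 ± 0.15 and 25.8 ± 1.01 (adjusted p = 0.0148 at d15 and 0.0185 between the times). Both were highest at d15, and any part of theirs in the cathepsin differences was not tested. Tfe3 was higher at d35 than at d15 (95.2 ± 2.96 against 72.4 ± 1.74, adjusted p = 0.0163) and did not pass against naive (adjusted p = 0.174).

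Of 19 genes tested in the list of other lysosomal hydrolases, which also holds the sterol carrier Npc2, 5 were higher at d35 and none lower, Npc2 among the 5, and the median log2 fold change was 0.18. The share that rose was 9.86% over all genes tested and 16.8% over those at least as abundant as the lowest cathepsin. Acp5, tartrate-resistant acid phosphatase, was at 184 ± 14.3 in naive, 241 ± 5.64 at d15 and 422 ± 116 at d35 (limma adjusted p = 0.00132). Npc2 was at 301 ± 8.62, 357 ± 9.21 and 401 ± 34.1 (adjusted p = 0.00638), and Gla and Lipa also rose. Lipa, the lysosomal acid lipase, was at 1134 ± 49.5 in naive, 959 ± 87.6 at d15 and 1434 ± 138 at d35. None of the 19 passed at d15, where 6 had an unadjusted p under 0.05.

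Of the cathepsins outside the 8, 5 of 15 listed had a row and 4 were tested. Ctsa, a serine carboxypeptidase that protects lysosomal glycosidases, was the highest, at 1362 ± 79.3, 1374 ± 75.9 and 1561 ± 96.5 in naive, d15 and d35, and did not pass at d35 (limma adjusted p = 0.125). Ctse, an aspartic protease of endosomes, was the only 1 of the 4 to rise. It was at 0.0504, 0.161 and 0.053 scaled CPM in naive, 0.277 and 0.0758 at d15, and 4.95, 3.21 and 6.37 at d35 (limma adjusted p = 0.000215), so it stayed far below the members.

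In the list of MHC class II processing, the pathway in which Ctss acts, rises were found at both times. Cd74, the invariant chain itself, was at 1423, 1506 and 1927 scaled CPM in naive, 3585 and 3788 at d15 and 5098, 2626 and 5828 at d35 (limma adjusted p = 0.0403 and 0.00573). As for Ctss, both d15 libraries exceeded every naive library, and replicates 2 and 3 were the lowest and highest at d35. Of the list's 5 tested genes, 2 rose at d15 (Cd74 and H2-DMb2) and 4 at d35 (Cd74, H2-DMa, H2-DMb1 and Ciita). Over all genes tested 2.37% rose at d15 and 9.86% at d35. None of the 5 passed between the times, where 2 had an unadjusted p under 0.05.

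Of the genes known with Ctsk from osteoclasts, 5 of 8 tested rose at d35, where 9.86% of all genes did. Acp5, among the 5, is also in the list of other lysosomal hydrolases. The median log2 fold change at d35 was 1.072, against -0.0022 over all genes. None of the 8 rose at d15, where 2.37% of all genes did, and 4 of the 8 had an unadjusted p under 0.05. Of the 4, Acp5 and Tyrobp were higher at d15, whereas Nfatc1, the osteoclast transcription factor, and Tnfrsf11a, the RANK receptor, were lower, with log2 fold changes of -0.42 and -0.49 (limma adjusted p = 0.0654 and 0.0612). At d35 those of Nfatc1 and Tnfrsf11a were -0.10 and -0.19 and did not pass, and both are named after their values were seen. Dcstamp, needed for fusion of osteoclast precursors, was at 0.0841, 0.0124 and 0.0177 in naive, 0.995 and 0.5004 at d15, and 75.8, 23.0 and 34.5 at d35 (limma adjusted p = 1.7e-05). Ocstamp, of like function, was at 0.411 ± 0.13, 1.06 ± 0.41 and 24.9 ± 10.4 (adjusted p = 2.0e-05 at d35). Acp5, Trem2 and its signalling partner Tyrobp also passed, Trem2 at 33.7 ± 2.55 and 69.5 ± 21.6 in naive and d35. The d35 values of Dcstamp, Ocstamp and Ctsk were all highest in replicate 1 and lowest in replicate 2.

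Among 8790 other genes with a mean log2(scaled CPM + 1) of at least 3, the genes most like each member over the 8 libraries were found by Pearson correlation, which describes these libraries only. Lrpap1, a chaperone of lipoprotein receptors, led for Ctsb (0.993), Ctsl (0.988) and Ctsz (0.991). It stood at 119 ± 7.27, 121 ± 1.13 and 183 ± 34.2 scaled CPM in the 3 groups. Procr, the protein C receptor, was the other for Ctsz (0.991). Pgap2 (0.995) and Cd63 (0.993) were the pair of Ctsk, and Cd63 the other of Ctsl (0.986). Cd63, a membrane protein of late endosomes, stood at 135 ± 20.3, 141 ± 1.79 and 414 ± 97.05.

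Trem2 (0.989) and Anxa4 (0.980) were closest to Ctsd. Lrg1 (0.981) and Ube2l3 (0.977) were closest to Ctsc, and Ppie (0.987) and Gm2a (0.977), the activator of ganglioside breakdown, to Ctsh. Ctss again stood apart, with the proteasome subunit gene Psma5 (0.996) and the respiratory chain gene Ndufb8 (0.995). Psma5 was at 45.8, 49.2 and 55.1 scaled CPM in naive, 65.0 and 70.5 at d15, and 70.4, 64.5 and 78.8 at d35. Like Ctss it was raised in both d15 libraries and highest in d35 replicate 3.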

How the data were processed

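The deposited expression table gives each gene a signal, scaled by the authors from its read count. STAR 2.5, mm10 and edgeR (no version) are named in the submitters' processing notes. The counting program, its annotation and its strand setting are each not given in the sources used here. All values (100%) came out as whole reads within 0.001 under the form (reads + 0.5) / (scaled library size + 1), as CPM. No gene held fewer than 41 reads in all. The authors' deposited table of d15 against naive holds log2 fold changes and log2 CPM, a likelihood-ratio score and p-values with FDR, per the file headers.

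The main test had to suit scaled values, so limma 3.58.1 in R 4.3.3, with an intensity trend, was fitted to log2(value + 1) for 11273 genes with at least 1 in at least 2 libraries, over all 8 libraries with group as the only term (residual df 5, prior df 5.72). P-values were adjusted by Benjamini-Hochberg over all genes tested and called at 0.05; groups of 2 or 3 libraries limit the precision. Alternatives were edgeR 4.0.16, DESeq2 1.42.0 and limma-voom on the recovered reads, other pseudocounts (0.5 and 2), filters and scalings, a length correction, fits of the 2 groups compared and each library left out. On the recovered reads edgeR called 417 genes for d15 against naive, 1760 for d35 against naive and 827 for d35 against d15. The members, gene lists and naming rule were chosen with earlier results of these data known. Named were all 8 members; per functional list the highest gene and up to 5 past the threshold with the smallest adjusted p; markers that were highest or passed at d35; the 2 genes most like each member; and chromosomal neighbours. Transcript lengths are from GENCODE M21 and promoters from RefSeq. Protein sequences were not analysed here. Some genes that the rule names are not reported here.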

Additional observations from a re-analysis of the deposited data

Results flagged for a closer look

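For 4 of the 8 cathepsins the change from naive differed between d35 and d15, by limma's test of the difference itself: Ctsk by 1.25, Ctsl by 0.67, Ctsb by 0.56 and Ctsz by 0.52 on the log2(scaled CPM + 1) scale. Both changes share the naive libraries, and the test compares 3 d35 with 2 d15 libraries. Of all genes tested 7.39% passed in that comparison, 4.59% higher. Without d15 replicate A 1 of the 8 members passed, Ctsk, and without d15 replicate B 0 did.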

How the results depend on the processing

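The d35 rise of Ctsb, Ctsk, Ctsl, Ctss and Ctsz passed in all 21 settings, and all 8 members kept a positive d35 log2 fold change in each. With 1 library left out at a time, the number of members called ran from 5 to 8 (of 8) for d35 against naive, from 0 to 1 for d15 and from 0 to 5 (main 4) for d35 against d15, and the number of genes called ran from 628 to 2288 (main 1824), from 11 to 1084 (main 493) and from 184 to 1046 (main 833). The smallest counts of genes came without naive replicate 2 at d35 and without d15 replicate B in the other comparisons. DESeq2 called 1451 genes and 1 member at d15 and 1368 genes between the times. Fits of only the 2 groups compared called 1454 genes and 1 member at d15, and 411 genes and 2 members (Ctsk and Ctsl) between the times. The cause was not tested. The length correction turned Ear2 at d35 against naive to -0.013 from 0.35, and covers the 11217 genes with a length. Naive and d35 libraries share replicate numbers, but deviations of same-numbered libraries correlated at -0.0071, -0.046 and 0.15, so the numbers are not shown to pair them; with the replicate block 1461 genes (1346 of them also called without it) and 6 members passed, without Ctsc and Ctsd. No paired analysis was possible for the d15 comparisons because the d15 columns carry numbers other than the titles. Each group has 2 or 3 libraries, so a missed call bounds a difference only by its interval, and counting error is small beside the spread between libraries at these read numbers.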
